A study of Homo sapiens with 7 samples.

Results

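The genes described here encode 9 integrin subunits that bind fibronectin, collagen, laminin and other matrix proteins: the α subunits ITGA2, ITGA3, ITGA5 and ITGAV and the β subunits ITGB1, ITGB3, ITGB5, ITGB6 and ITGB8. They were chosen by name from 56234 genes with a transcript in the deposited files, and all 9 were measured. RNA was sequenced from 2 established human lines of esophageal squamous cell carcinoma carrying a short hairpin RNA (shRNA), with 1 library per condition. TE5 cells received a non-targeting scramble shRNA or an shRNA against TP63, SOX2 or the long non-coding RNA CCAT1 (4 libraries), and KYSE140 cells received scramble, TP63 or SOX2 shRNA (3 libraries). The comparison asks what silencing of these squamous master transcription factors, or of CCAT1, did to each subunit within its own line.

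Integrins are cell surface receptors made of 1 α and 1 β chain, and the pairing sets the ligand. β1 is the common partner: α2β1 binds collagen, α3β1 binds laminin-332 and α5β1 is the classical fibronectin receptor. αv pairs with β1, β3, β5, β6 or β8 to read the RGD motif of fibronectin, vitronectin and the latent form of TGF-β, and αvβ6 and αvβ8 are known for releasing active TGF-β from that latent form in epithelia. The laminin receptor of hemidesmosomes, α6β4, belongs to the other subunits and is mentioned only for context.

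Estimated counts summed to between 68532611 and 98036494 per library. Upon TP63 silencing, TP63 was left at 25.4% of scramble in TE5 and 26.1% in KYSE140. Upon SOX2 silencing, SOX2 was left at 39.6% in TE5 but at 77.4% in KYSE140, so the KYSE140 SOX2 library rests on a small decrease of its target. The factor not targeted also differed from scramble. Upon TP63 silencing, SOX2 stood at 67.25% in TE5 and 104.5% in KYSE140, and upon SOX2 silencing TP63 stood at 116% and 127%. CCAT1 was not analysed here, so the third silencing has no such check. The libraries carried squamous markers (summed TPM of 9 genes from 1438 in TE5 shTP63 to 21605 in KYSE140 shSOX2), although KRT14 ranged from 0.202 to 1689 TPM. Among the fibroblast markers COL1A1 was at 12.6 to 44.4 TPM while COL3A1, COL1A2, DCN and LUM reached at most 1.73, and the summed leukocyte markers stayed at or under 1.16 TPM. The knockdown libraries of each line shared a sequencing lane that its scramble library did not, so lane and silencing cannot be told apart in any comparison with scramble. The comparisons between knockdowns of a line hold no such difference.

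Start-site windows of 3 subunits are shown because the results below turn on them: ITGB6 lay furthest above scramble in TE5 among the well-expressed subunits, ITGB8 was the 1 subunit past the edgeR threshold between TP63 and SOX2 silencing, and ITGA5 differed most between the lines. Each runs 5′ to 3′ on the gene's strand over 300 bases, from 250 before to 50 after the start, as given by RefSeq on GRCh38.p14, a newer build than the hg19 transcripts of the files. Capitals mark matches, on either strand, to the AP-1 word TGANTCA, the TEAD word GGAATG, the SOX word ACAANG or a p53 family half-site. The SP1 word GGGCGG was counted but is not capitalised.
ITGB6 (chr2:160200223-160200522, minus strand): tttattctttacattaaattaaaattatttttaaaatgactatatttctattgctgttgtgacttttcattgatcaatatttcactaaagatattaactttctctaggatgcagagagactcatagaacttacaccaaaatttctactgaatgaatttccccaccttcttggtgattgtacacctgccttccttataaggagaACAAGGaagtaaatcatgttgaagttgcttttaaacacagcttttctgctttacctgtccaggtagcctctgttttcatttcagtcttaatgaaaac
ITGB8 (chr7:20330650-20330949, plus strand): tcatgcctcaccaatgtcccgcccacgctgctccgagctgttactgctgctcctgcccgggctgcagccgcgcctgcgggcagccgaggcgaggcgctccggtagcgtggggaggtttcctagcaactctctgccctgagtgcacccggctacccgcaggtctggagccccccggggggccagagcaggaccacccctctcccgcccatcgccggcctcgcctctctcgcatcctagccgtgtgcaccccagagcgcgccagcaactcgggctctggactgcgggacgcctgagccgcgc
ITGA5 (chr12:54419217-54419516, minus strand): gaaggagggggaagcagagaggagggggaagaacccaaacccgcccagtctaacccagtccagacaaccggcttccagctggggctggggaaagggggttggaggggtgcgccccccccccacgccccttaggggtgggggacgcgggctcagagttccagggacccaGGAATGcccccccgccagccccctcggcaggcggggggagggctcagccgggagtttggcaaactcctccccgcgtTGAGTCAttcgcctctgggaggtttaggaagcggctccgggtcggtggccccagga
The ITGB6 window was rich in A and T (GC content 31.7%) and held 1 SOX word and no SP1 word. The ITGB8 window had a GC content of 71.7% with 2 SP1 words, and no capitalised match. The ITGA5 window, at 69.3% GC, held 1 AP-1, 1 TEAD and 1 SP1 word. Over all 35116 RefSeq windows of this length, 7.71% held the AP-1 word, 14.0% the TEAD word, 35.5% the SOX word, 45.0% the SP1 word and 6.63% a p53 family half-site. RefSeq windows were matched for 7 of the 9 subunits (11 windows), and 0 of these 11 held the half-site. These are matches of letters only. ITGA3 and ITGB3 were not matched.

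Reads of 1 member can also match a copy of part of its sequence. The processed pseudogene ITGB1P1 (ENSG00000269378, chr19:14732446-14733054, minus strand, hg19) is 609 bases long and matched the leading ITGB1 transcript at every base, over its positions 1872 to 2480, which are coding. The first 60 bases of the stretch they share are printed to show what cannot be placed.
ITGB1 and ITGB1P1: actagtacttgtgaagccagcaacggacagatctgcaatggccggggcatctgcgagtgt
All 579 words of 31 bases in the pseudogene also occur in ITGB1. The pseudogene was listed at 300.3 estimated counts in TE5 shCCAT1, 5.8 in KYSE140 shSOX2 and 0 in the other libraries, against 33043 to 71664 for ITGB1. In TE5 shCCAT1 itself ITGB1 had 49573, so the listed pseudogene counts were small beside those of ITGB1. Among the other subunits, ITGB3 shared 40.5% of its words with other genes, most with the annotated gene ENSG00000259753, and ITGB6 shared 19.1%, all with the overlapping non-coding gene ENSG00000285155. Those genes were listed at no more than 5.0 and 93.7 counts in any library, so the split of reads between them and the subunits is uncertain. The remaining members shared between 0.27% (ITGA5) and 6.34% (ITGB1) of their words.

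Levels are given as TPM, a transcript abundance scaled to the same total in each library, which correct for transcript length and can be compared between genes. ITGB1 (ENSG00000150093, chr10:33176201-33294720, hg19), the partner of most α subunits, was the highest subunit in all 7 libraries. It stood at 260 TPM in TE5 scramble, 331 in shTP63, 327 in shSOX2 and 225 in shCCAT1, and at 218, 243 and 221 in KYSE140 scramble, shTP63 and shSOX2. Both lines thus carried the common β chain at close levels, and it stood above at least 97.98% of detected genes in every library. In such bulk RNA, fewer cells with a transcript and less of it per cell cannot be told apart.

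Among the α subunits, ITGA3 and ITGA5 had opposite orders in the lines. ITGA3 (ENSG00000005884, chr17:48133332-48167845), the laminin-332 receptor chain, was at 228 TPM in TE5 scramble, 279 in shTP63, 232 in shSOX2 and 198 in shCCAT1, against 69.8, 59.7 and 82 in KYSE140 scramble, shTP63 and shSOX2. ITGA5 (ENSG00000161638, chr12:54789045-54813050), the fibronectin receptor chain, showed the opposite order, with 19.5, 27.1, 30.5 and 17.3 TPM in TE5 and 92.6, 103 and 98 in KYSE140. Each TE5 library was therefore on one side of each KYSE140 library for both genes. Such a lack of overlap was common, at 62.6% of 23438 genes in the normalized counts of scramble, shTP63 and shSOX2. ITGA3 made up 71.8% of the summed α TPM of TE5 scramble and 31.3% of that of KYSE140 scramble. ITGA5 made up 6.16% and 41.6%.

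ITGA2 (ENSG00000164171, chr5:52285170-52390609), the collagen receptor chain, was at 33.3, 54.4, 57.5 and 33.2 TPM in TE5 scramble, shTP63, shSOX2 and shCCAT1 and at 38.6, 38.0 and 48.1 in KYSE140 scramble, shTP63 and shSOX2. Its range in one line overlapped that in the other. ITGAV (ENSG00000138448, chr2:187454737-187545628), the shared chain of the RGD receptors, was at 36.4, 62.6, 70.0 and 33.3 TPM in TE5 and at 21.8, 30.1 and 29.6 in KYSE140, in the same order of conditions. In each line the TP63 and SOX2 libraries were the higher ones for ITGAV.

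**Figure D1:**
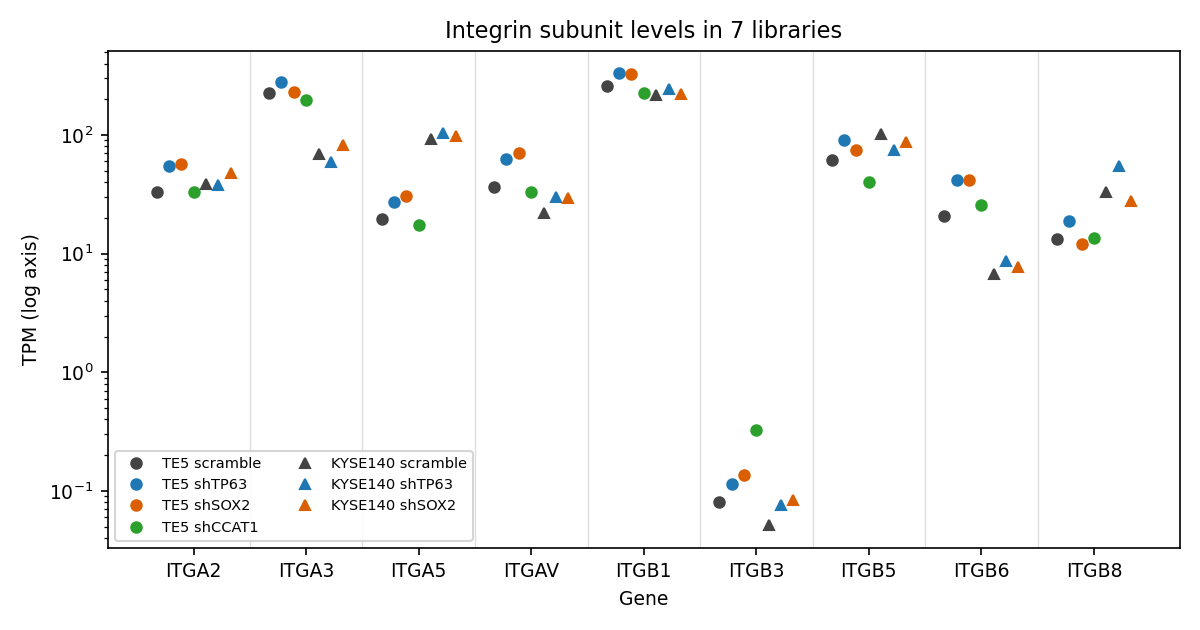
TPM of the 9 integrin subunits (vertical log axis) in each of the 7 libraries, with circles for TE5, triangles for KYSE140 and colours for the shRNA. ITGB1 is the top point group in both lines, ITGB3 lies at 0.327 TPM or under, and ITGA3 and ITGA5 have opposite orders between the lines.

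The β chains that pair with αv also had a different mix in each line. ITGB5 (ENSG00000082781, chr3:124480795-124620265), of the vitronectin receptor αvβ5, led in all libraries, with 61.0, 90.4, 75.0 and 40.1 TPM in TE5 scramble, shTP63, shSOX2 and shCCAT1 and 102, 74.9 and 88.0 in KYSE140 scramble, shTP63 and shSOX2. ITGB6 (ENSG00000115221, chr2:160956178-161056824), an epithelial chain, was at 20.8, 41.5, 41.9 and 25.6 TPM in TE5 and at 6.70, 8.73 and 7.72 in KYSE140. ITGB8 (ENSG00000105855, chr7:20370325-20455377) was at 13.2, 19.0, 12.1 and 13.5 TPM in TE5 and at 32.9, 54.3 and 27.8 in KYSE140. TE5 libraries were the higher for ITGB6 and KYSE140 libraries for ITGB8, without overlap, beside the 62.6% of genes without overlap in normalized counts. ITGB3 (ENSG00000259207, chr17:45331193-45391109), the β chain of αvβ3, was near the limit of detection, with 17.0, 29.0, 29.0 and 84.0 estimated counts in TE5 and 9.3, 20.1 and 19.0 in KYSE140, or between 0.0513 and 0.327 TPM.

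Of the TPM summed over ITGB3, ITGB5, ITGB6 and ITGB8 in scramble, ITGB6 took 21.9% in TE5 and 4.74% in KYSE140, and ITGB8 took 13.9% and 23.3%. The mix also differed between the libraries of a line. In TE5 the ITGB6 share was 27.5% in shTP63, 32.5% in shSOX2 and 32.2% in shCCAT1, while ITGB8 was at 12.6%, 9.4% and 17.0%. In KYSE140 the ITGB8 share was 39.4% in shTP63 and 22.5% in shSOX2. The KYSE140 TP63 library thus had the largest ITGB8 share of the 7, beside an ITGB5 share of 54.3% where scramble had 71.9%.

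**Figure D2:**
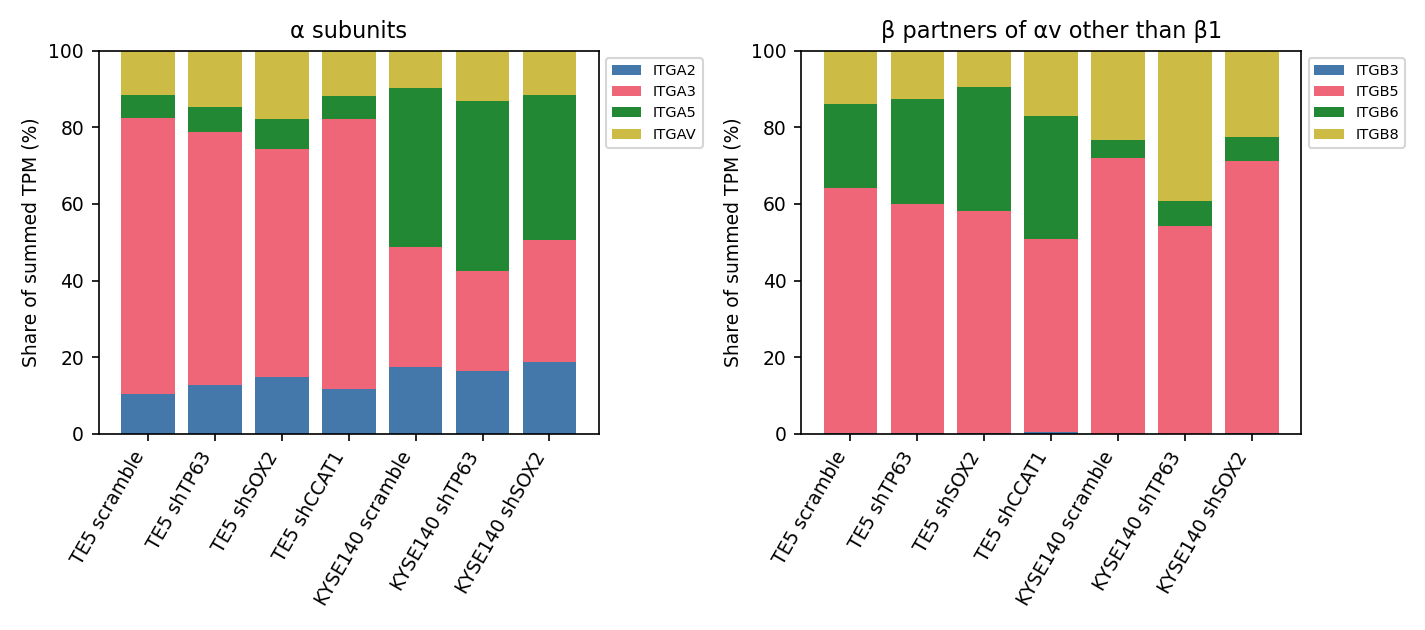
Share of summed TPM (%, bars start at 0) taken by each of the 4 α subunits (left) and by each β partner of αv other than β1 (right) in the 7 libraries. ITGA3 fills 59.5% to 71.8% of the α bars of TE5 and ITGA5 38.0% to 44.5% of those of KYSE140, and ITGB8 takes 39.4% of the β bar of KYSE140 shTP63.

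To test the difference between the lines, scramble, shTP63 and shSOX2 of both lines (6 libraries) were fitted together on gene counts with edgeR, the conditions standing in for replicates of a line. Whether libraries came from separate cultures is not stated, so p-values measure only the spread between these libraries. ITGA5 was higher in KYSE140 by 2.12 ± 0.13 on the log2 scale (SE; edgeR adjusted p = 1.43e-05), and ITGB8 by 1.62 ± 0.12 (edgeR adjusted p = 3.56e-05). ITGB5 was also higher, by 0.58 ± 0.17 (edgeR adjusted p = 0.0235). Lower in KYSE140 were ITGB6 (-1.91 ± 0.17, edgeR adjusted p = 7.99e-05), ITGA3 (-1.57 ± 0.17, edgeR adjusted p = 0.000215) and ITGAV (-0.80 ± 0.12, edgeR adjusted p = 0.00113). ITGA2 (0.08 ± 0.15), ITGB1 (-0.17 ± 0.11) and ITGB3 (-0.39 ± 0.47) did not pass, with edgeR adjusted p of 0.679, 0.229 and 0.501. So 6 of 9 subunits passed, where 66.1% of the 23438 genes tested did (54.1% with DESeq2, which called the same number of subunits), and the same 6 had normalized counts that did not overlap between the lines, as did 62.6% of genes. The share of subunits that differed was thus near the background. The ITGB5 difference was lost (0.36, edgeR adjusted p = 0.117) when counts were scaled by library totals only, and without the KYSE140 or the TE5 scramble library (0.37 for both, edgeR adjusted p = 0.163 and 0.166). ITGB1, in contrast, passed under library totals (-0.39, edgeR adjusted p = 0.0229).

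**Figure D3:**
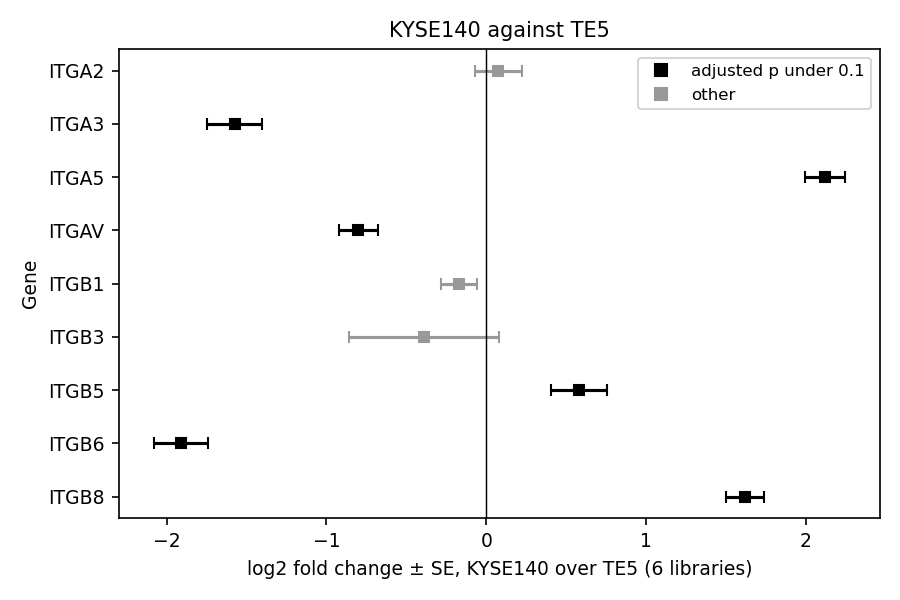
Fitted log2 fold change (horizontal axis) of KYSE140 over TE5 for each subunit, with bars of 1 SE, over 6 libraries (edgeR). Black squares have an adjusted p under 0.1: ITGA5, ITGB8 and ITGB5 lie above 0 and ITGB6, ITGA3 and ITGAV below.

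Upon silencing, differences from scramble are log2 ratios of normalized counts (TMM-scaled, 1 added). A single library per condition allows no test, so a value past 1 or -1 was counted, and intervals given are 95% exact binomial intervals for counting error only. In TE5, ITGB6 stood at 4990 normalized counts in scramble, 9162 in shTP63, 10126 in shSOX2 and 5500 in shCCAT1. TP63 silencing left it at 184% of scramble (log2 0.88, 0.83 to 0.93) and SOX2 silencing at 203% (1.02, 0.97 to 1.07). In KYSE140 it stood at 1769, 2263 and 2190 normalized counts in scramble, shTP63 and shSOX2, which is 128% (0.36) and 124% (0.31). ITGB6 was thus higher in all 4 TP63 and SOX2 libraries, with the larger ratios in the line that has more of it.

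ITGAV, its partner, showed the same direction in both lines. In TE5 its normalized counts were 12881 in scramble, 17857 in shTP63 and 24669 in shSOX2, which is 139% (log2 0.47) and 192% (0.94). In KYSE140 they were 7703, 11486 and 12153, or 149% (0.58) and 158% (0.66). Among genes with at least 1000 normalized counts, these values sat at the 90.21, 99.42, 97.43 and 96.62 percentiles of the pairs, in that order. The αv chain was therefore near the upper end in 3 of the 4 comparisons, though never past 1.

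ITGA2 was at 148% (log2 0.56) upon TP63 and 176% (0.82) upon SOX2 silencing in TE5, from 14428 normalized counts in scramble to 21293 and 25425. In KYSE140 it was at 97.8% (-0.03) upon TP63 and 142% (0.50) upon SOX2 silencing, from 18760 to 18354 and 26606. The collagen receptor chain was thus above scramble in 3 of the 4 libraries. The small KYSE140 TP63 value had the other sign under library totals only (0.03).

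ITGA5, with 4534 normalized counts in TE5 scramble, was at 5510 in shTP63 (log2 0.28) and 7012 in shSOX2 (0.63). In KYSE140 it was at 22398 in scramble, 23309 in shTP63 (0.06) and 27531 in shSOX2 (0.30). Its partner ITGB1 lay closer to scramble, at 47816, 55621 and 61223 in TE5 scramble, shTP63 and shSOX2 normalized counts (0.22 and 0.36) and at 44950, 49711 and 51266 in KYSE140 (0.15 and 0.19). The fibronectin receptor chains were above scramble in all 4 libraries on this scale. Which of the TP63 and SOX2 libraries was higher depended on the scale: on the log2 TPM scale ITGB1 was at 0.02 and 0.13 for TP63 against SOX2 in TE5 and KYSE140, and ITGA5 at -0.17 and 0.06.

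ITGA3 and ITGB5 went different ways in the lines. ITGA3 was at 51124, 54368 and 46081 normalized counts in TE5 scramble, shTP63 and shSOX2 (log2 0.09 and -0.15) and at 17367, 13665 and 20496 in KYSE140 (-0.35 and 0.24). The TE5 SOX2 value changed sign on the TPM scale (0.03). ITGB5 was at 6117, 8148 and 7479 in TE5 (0.41 and 0.29) and at 12079, 9044 and 11419 in KYSE140 (-0.42 and -0.08). Whether the lines differ in these responses was not tested, since each rests on 1 library.

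ITGB8 lay above scramble upon TP63 silencing and slightly below it upon SOX2 silencing. In TE5 it was at 5507 normalized counts in scramble, 7603 in shTP63 (138%, log2 0.47, 0.42 to 0.51) and 5216 in shSOX2 (94.7%, -0.08, -0.13 to -0.02). In KYSE140 it was at 16079 in scramble, 26841 in shTP63 (167%, 0.74, 0.71 to 0.77) and 14623 in shSOX2 (90.95%, -0.14, -0.17 to -0.10). Both lines thus had the same order of the 3 libraries. ITGB3, at 22.5 and 29.9 normalized counts in TE5 shTP63 and shSOX2 against 17.7 in scramble and 18.4 and 23.2 in KYSE140 against 12.6, had intervals that included 0 in all 4 pairs, so no difference was detectable at this depth.

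Counted over the 9 subunits, 0 lay past 1 or -1 upon TP63 silencing in TE5 and 1 (ITGB6) upon SOX2 silencing. In KYSE140 the count was 0 for both. Over all genes that reached 10 counts in either library, the background was 20.5% for TE5 shTP63, 11.3% for TE5 shSOX2, 13.3% for KYSE140 shTP63 and 13.3% for KYSE140 shSOX2. Among genes with at least 1000 normalized counts, as all subunits but ITGB3 have, the shares were 6.46%, 1.55%, 1.62% and 2.33%. All 9 subunits were above 0 in TE5 shTP63, 7 in TE5 shSOX2, 6 in KYSE140 shTP63 and 7 in KYSE140 shSOX2. In the TE5 shTP63 pair all 9 squamous markers, which include TP63, the silenced gene, and SOX2, were below 0 (median -0.76). The 4 fibroblast markers tested were above 0 there (median 2.12), and the summed endothelial markers went from 2.37 to 9.28 TPM. Below 0 were 5 of 9 squamous markers in TE5 shSOX2, 8 in KYSE140 shTP63 and 1 in KYSE140 shSOX2. Fibroblast medians in these were 1.55, -0.56 and 0.18. The part of these markers in the subunits' values was not tested. The medians of the subunits were 0.41 and 0.63 in TE5 shTP63 and shSOX2 and 0.15 and 0.30 in KYSE140 shTP63 and shSOX2. In that order, medians were 0.07, -0.01, 0.05 and 0.06 over all genes tested and -0.14, -0.03, -0.01 and 0.06 over genes with at least 1000 normalized counts. Scaling by library totals alone raised the median of all genes in TE5 shTP63 from 0.07 to 0.21, and put ITGB6 past 1 there.

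**Figure D4:**
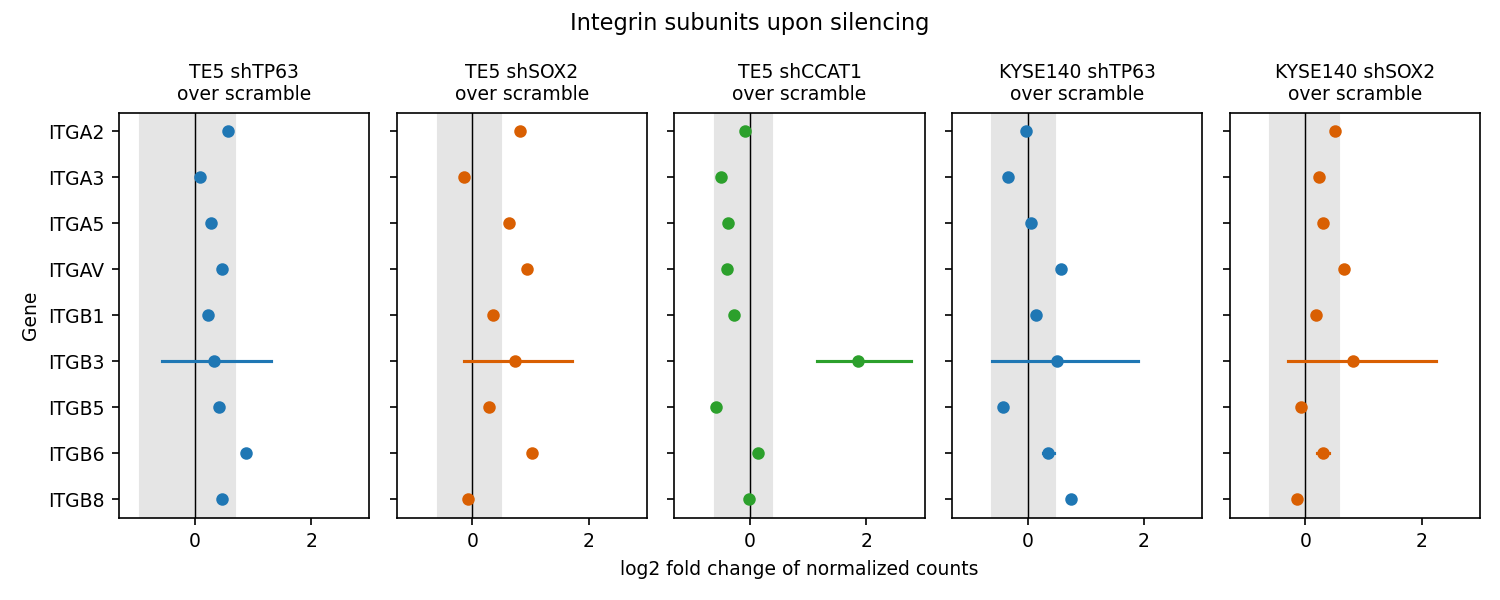
Log2 fold change of normalized counts over scramble (horizontal axis) for the 9 subunits in the 5 silenced libraries, with 95% counting intervals as lines where wider than the point. The grey band spans the 5th to 95th percentile of genes with at least 1000 normalized counts. ITGB6, ITGAV, ITGA2 and ITGA5 lie right of it upon SOX2 silencing in TE5, as does ITGB6 upon TP63 silencing in TE5. In KYSE140, ITGAV and ITGB8 lie right of it upon TP63 silencing and ITGAV upon SOX2 silencing. ITGB3, which is not among the genes of the band, also lies right of it in some panels and has intervals far wider than the others.

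With both lines as replicates of a silencing, edgeR called none of the 9 subunits upon TP63 or SOX2 silencing at an adjusted p under 0.1. The background was low, 0.939% of 23438 genes for TP63 and 0.145% for SOX2, and 46 genes were higher and 174 lower for TP63 (13 and 28 under library totals). TP63 itself was called upon its silencing (-1.95, edgeR adjusted p = 0.0368) while SOX2 was not (-0.88, edgeR adjusted p = 0.302). At an unadjusted p under 0.05, 1448 genes of 23438 were higher and 1918 lower for TP63, and 899 and 1196 for SOX2. There were 3 subunits for TP63 at this threshold, all higher: ITGB8 (0.61 ± 0.14), ITGB6 (0.61 ± 0.20) and ITGAV (0.53 ± 0.15), with edgeR adjusted p of 0.144, 0.243 and 0.200. For SOX2 there were 4, all higher: ITGAV (0.78 ± 0.15), ITGB6 (0.64 ± 0.20), ITGA2 (0.63 ± 0.18) and ITGA5 (0.44 ± 0.15), with edgeR adjusted p of 0.213, 0.413, 0.363 and 0.463. DESeq2 called ITGAV for both (adjusted p = 0.0824 and 0.00317), ITGB8 for TP63 (adjusted p = 0.0269) and ITGA2 for SOX2 (adjusted p = 0.0882), where it called 11.2% and 4.01% of genes.

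Set directly against each other, the TP63 and SOX2 libraries of a line share a lane, and their pairs use no scramble library, although the fit of both lines also takes its estimate of the spread from the scramble libraries. The SOX2 libraries had TP63 above scramble in both lines, and the TE5 TP63 library had SOX2 below it. The contrast therefore does not set the loss of TP63 alone against the loss of SOX2 alone. ITGB8 was higher upon TP63 than SOX2 silencing in TE5 (7603 against 5216 normalized counts, log2 0.54, 0.49 to 0.59) and in KYSE140 (26841 against 14623, 0.88, 0.85 to 0.91). The fit of both lines gave 0.74 ± 0.14 (SE; edgeR adjusted p = 0.0589), and DESeq2 gave 0.70 ± 0.18 (adjusted p = 0.0021). It was the 1 subunit called, where 4.22% of genes were called and 1.8% were called higher (16.0% with DESeq2). Of all genes called, 423 were higher and 565 lower, and under library totals 644 and 384, a scaling that moved the median of all genes from 0.04 to 0.15. ITGB8 is a chain of the TGF-β activating receptor αvβ8. The edgeR call was lost on leaving out any of the libraries but TE5 shTP63 (adjusted p 0.102 to 0.241, with estimates of 0.55 to 0.84), without the block for line (0.9999) and with transcripts of no gene kept (0.169).

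The other subunits did not pass in this contrast. ITGA2 (-0.36 ± 0.18) was at -0.26 in TE5 and -0.54 in KYSE140 and ITGA5 (-0.27 ± 0.15) at -0.35 and -0.24, with edgeR adjusted p of 0.357 and 0.406, and ITGA5 in KYSE140 had the other sign on TPM (0.06). ITGAV (-0.25 ± 0.15, edgeR adjusted p = 0.445) was at -0.47 in TE5 and -0.08 in KYSE140. ITGB6 (-0.03 ± 0.20) was close to 0, at -0.14 in TE5 and 0.05 in KYSE140, and 0 of the 9 subunits lay past 1 in a pair, where 20.6% (TE5) and 17.1% (KYSE140) of genes did, or 6.97% and 4.95% with at least 1000 normalized counts. In the KYSE140 pair 2294 genes lay past 1 and 1485 past -1, and under library totals 2856 and 1160, with ITGB8 then past 1. Most squamous markers were lower in this contrast. Of 9, edgeR called 3 lower (TP63, which is the silenced gene, KRT5 and S100A2), where 2.41% of genes were, and the list also holds SOX2. DESeq2 did not call KRT5 (DESeq2 adjusted p = 0.580). In the TE5 pair 6 of the 9 markers were below 0 and 3 above, 1 of them past 1, and in the KYSE140 pair 8 were below and 1 above. Their summed TPM was 1438 in TE5 shTP63 against 3204 in shSOX2 and 10215 against 21605 in KYSE140. Their part in the ITGB8 difference was not tested.

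**Figure D5:**
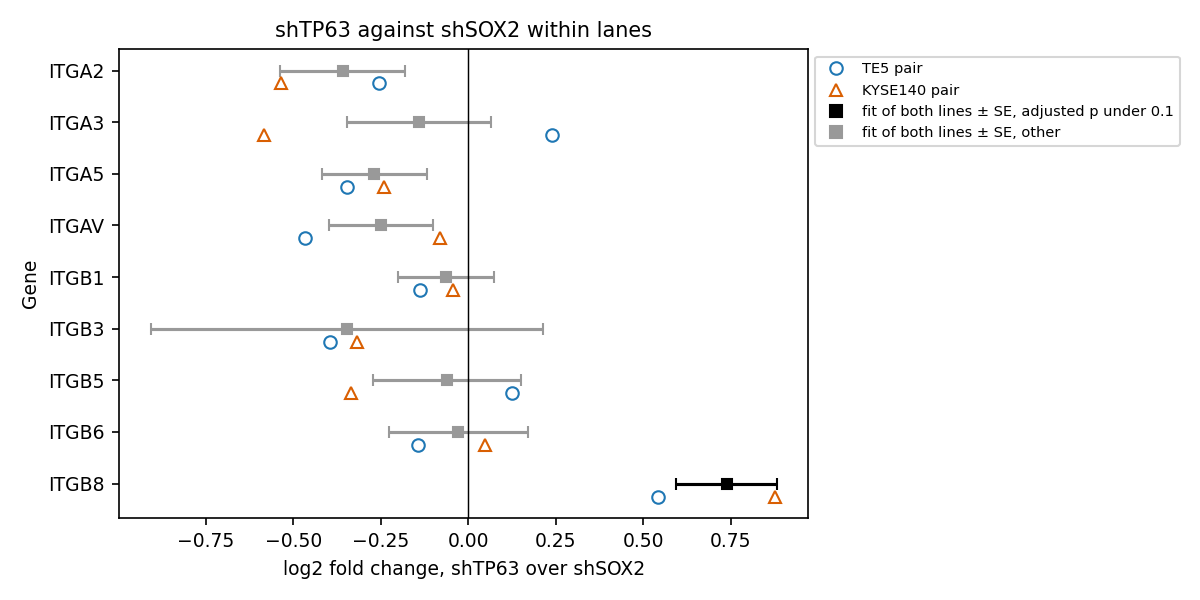
Log2 fold change of shTP63 over shSOX2 (horizontal axis) for each subunit: open circles for the TE5 pair, open triangles for the KYSE140 pair, and squares with 1 SE for the edgeR fit of both lines. ITGB8, in black, is the 1 subunit with an adjusted p under 0.1, at 0.74.

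CCAT1 silencing was done in TE5 only. Compared with scramble, ITGB5 was the lowest of the subunits at 66.6% (4071 against 6117 normalized counts, log2 -0.59), followed by ITGA3 at 71.0% (36283 against 51124, -0.49). ITGAV was at 76.1% (9805 against 12881, -0.39), ITGA5 at 77.1% (3497 against 4534, -0.37) and ITGB1 at 82.1% (39278 against 47816, -0.28). The pseudogene held 237.9 normalized counts in that library. ITGA2 (-0.09) and ITGB8 (-0.01) were close to scramble and turned positive under library totals (0.08 and 0.16), and ITGB6 was at 110% (0.14).

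ITGB3 was the exception in that library, with 84.0 estimated counts against 17.0 in scramble (log2 1.86, 1.15 to 2.76 of normalized counts). It was the 1 subunit past 1 in this pair, where 17.9% of genes were, and lay at the 95.01 percentile of all genes tested. The share was 0.746% among genes with at least 1000 normalized counts, a set that does not hold ITGB3. The endothelial markers VWF and CDH5 summed to 2.37 TPM in TE5 scramble, 9.28 in shTP63, 4.38 in shSOX2 and 2.56 in shCCAT1, and the platelet markers to 1.45 in scramble and 1.78 in shCCAT1, with GP9 at 0. Their part in the ITGB3 value was not tested. ITGB3 reached only 0.327 TPM, at the 22.7 percentile of detected genes. The median of the subunits was -0.28, beside 0.02 over all genes and -0.10 over genes with at least 1000 normalized counts. Library totals alone moved the median of all genes from 0.02 to 0.19 and that of the subunits to -0.11.

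Against the other knockdowns of its own lane, the CCAT1 library stood lower for most subunits. ITGAV was at 39.8% of the SOX2 library (log2 -1.33) and 54.9% of the TP63 library (-0.86). ITGA5 was at 49.9% (-1.0) and 63.5% (-0.66), ITGB5 at 54.4% (-0.88) and 49.96% (-1.0), and ITGB6 at 54.3% (-0.88) and 60.03% (-0.74). ITGB8 was close to the SOX2 library (0.06) and below the TP63 library (-0.48), and ITGB3 was above both (1.13 and 1.52). Past 1 or -1 were ITGAV, ITGA5 and ITGB3 against SOX2 (3 of 9, background 20.3%, or 2.92% with at least 1000 normalized counts) and ITGB5 and ITGB3 against TP63 (2 of 9, background 24.5%, or 5.93%). The genes with at least 1000 normalized counts do not include ITGB3. ITGA5 and ITGB5 lay at the limit itself and fell short of it under library totals. ITGB3 fell short of it against SOX2 with 10 added to the counts (0.94), and on the log2 TPM scale against both SOX2 (0.86) and TP63 (0.99).

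The sums mostly rested on 1 transcript per subunit. The leading transcript of each subunit carried between 71.9% (ITGB5, TE5 shCCAT1) and 100% (ITGB3) of its counts in every library. For ITGAV it ranged from 76.9% in KYSE140 shSOX2 to 91.7% in TE5 shTP63, the widest range among the αv receptor chains. Transcripts not annotated as coding took at most 11.7% (ITGA3, KYSE140 shSOX2).

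The other genes of integrin adhesion were taken from lists by role. Over all 23438 genes, 1448 were higher and 1918 lower for TP63 at an unadjusted p under 0.05. They were 899 and 1196 for SOX2, and 1975 and 2123 for TP63 against SOX2. At an adjusted p under 0.1, edgeR called 0.939%, 0.145% and 4.22% of genes in that order, and DESeq2 called 11.2%, 4.01% and 16.0%. Of the 17 other integrin subunits, 1 was called between TP63 and SOX2 silencing, where 4.22% of genes were called and 2.41% were called lower. This was ITGA6, lower upon TP63 than SOX2 silencing (-1.51 ± 0.19, edgeR adjusted p = 0.0241). None was called upon either silencing alone, with 6 and 2 at an unadjusted p under 0.05 and 3 and 0 by DESeq2. ITGA6 and its partner ITGB4, the laminin receptor of hemidesmosomes, stood at log2 -0.86 and -0.83 against scramble in TE5 shTP63 and at -0.91 and -0.65 in KYSE140 shTP63, where the ITGAV values were 0.47 and 0.58. Upon SOX2 silencing ITGA6 was at 0.35 in TE5 and 0.93 in KYSE140. ITGB4 was then lower in TE5 (52057 normalized counts against 68948 in scramble) and slightly higher in KYSE140 (62866 against 57346).

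None of the edgeR calls for the genes of these lists, ITGA6 included, was left without the block for line or with transcripts of no gene kept, and those upon TP63 silencing were also lost on leaving out the TE5 or the KYSE140 scramble library. Among 21 matrix ligands tested, 3 were called between TP63 and SOX2 silencing, where 4.22% of genes were: the matrix glycoprotein TNC (-2.58 ± 0.23, edgeR adjusted p = 0.0155) and osteopontin SPP1 (-1.54 ± 0.34, edgeR adjusted p = 0.0820) were lower and EDIL3 (0.75 ± 0.16, edgeR adjusted p = 0.0770), an αv ligand, was higher. DESeq2 called TNC and EDIL3 in this contrast but not SPP1 (-2.27 ± 1.12, DESeq2 adjusted p = 0.194). None of the 21 was called by edgeR upon either silencing alone, with 5 and 8 at an unadjusted p under 0.05 and 4 and 3 by DESeq2, which called 11.2% and 4.01% of genes. TNC, a ligand of αv receptors, was at 262, 79.2 and 624 normalized counts in TE5 scramble, shTP63 and shSOX2 and at 5272, 3177 and 16367 in KYSE140, so SOX2 silencing had the highest and TP63 silencing the lowest value of the 3 in both lines. The laminin chain LAMB3, of the ITGA3 ligand, was at 0.61 and 0.65 in TE5 shTP63 and shSOX2 and at -0.21 and 0.55 in KYSE140. LAMA5, also a laminin chain, was at 0.18, 0.12, -0.15 and 0.55 in the same order. COL3A1 was listed at 74.8, 470 and 410 normalized counts in TE5 scramble, shTP63 and shSOX2 and at 0, 5.4 and 40.9 in KYSE140.

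The list of latent TGF-β carriers holds TGF-β genes and genes whose products carry TGF-β in its latent form. It gave no call among 9 in any silencing contrast. At an unadjusted p under 0.05 there were 2 for TP63, 1 for SOX2 and 3 for TP63 against SOX2, and 0, 0 and 1 by DESeq2. NRROS, which carries latent TGF-β in myeloid cells, was past 1 upon TP63 silencing in both lines (1.39 and 1.01) but from only 22.9 and 13.6 normalized counts. LTBP3 was at 0.48 and 0.15 in TE5 shTP63 and shSOX2 and at -0.06 and 0.34 in KYSE140, and LTBP4 at -0.66, 1.15, -0.10 and 0.35 in that order.

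Inside the cell, 7 of 18 focal adhesion signalling genes were called lower upon TP63 than SOX2 silencing and 0 higher, where 2.41% of genes were called lower. They were the kinase PTK2 (-1.04 ± 0.15, edgeR adjusted p = 0.0354), RAPGEF1, CRK, CRKL, CSK, SRC and the scaffold PXN (-0.59 ± 0.14, edgeR adjusted p = 0.0865), with the first also called upon TP63 silencing itself (-0.98 ± 0.15, edgeR adjusted p = 0.0854). PTK2, the focal adhesion kinase, stood at -0.996 and -0.97 against scramble in TE5 and KYSE140 shTP63 and at 0.25 and -0.09 in shSOX2. Under library totals 4 of 18 were called lower between TP63 and SOX2 silencing and 0 upon TP63 silencing, and without the TE5 or the KYSE140 scramble library 0 of 18 were called in either contrast. The list median was -0.50 in this contrast and -0.43 upon TP63 silencing, beside 0.04 for both over all genes. For SOX2 silencing 0 of 18 were called, with 2 at an unadjusted p under 0.05 and 0 by DESeq2.

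Of 24 activators and actin linkers, the integrin activator kindlin-1, FERMT1, was called lower upon TP63 silencing (-1.06 ± 0.15, edgeR adjusted p = 0.0805) and lower upon TP63 than SOX2 silencing (-1.25 ± 0.15, edgeR adjusted p = 0.0237). LPP was also lower in the latter contrast (-1.68 ± 0.32, edgeR adjusted p = 0.0582). So 1 of 24 was called upon TP63 silencing and 2 for TP63 against SOX2 silencing, where 0.939% and 4.22% of genes were. Under library totals FERMT1 and LPP were again called in that contrast (edgeR adjusted p = 0.0292 and 0.0686) and none upon TP63 silencing. None was called upon SOX2 silencing, with 2 at an unadjusted p under 0.05 and 0 by DESeq2. The actin linker FLNA was at -1.19 in TE5 shCCAT1, and between -0.33 and 0.13 in the other silenced libraries, and ACTN4 was at -0.62 in TE5 shCCAT1. Of 24 genes in this list, 22 were below 0 upon CCAT1 silencing, with a median of -0.42. So were 19 of 22 matrix ligands (median -0.56), 8 of 9 latent TGF-β carriers (-0.59) and 7 of 8 inhibitors (-0.23). The same held for 9 of 11 lateral membrane partners (-0.32) and 14 of 18 focal adhesion signalling genes (-0.11). The median of genes with at least 1000 normalized counts was -0.10, and library totals raised that of all genes from 0.02 to 0.19.

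Of 8 inhibitors of integrin activity, 0 were called in any silencing contrast, with 2, 0 and 3 at an unadjusted p under 0.05 for TP63, SOX2 and TP63 against SOX2 and 1, 0 and 3 by DESeq2. ITGB1BP1, which binds the β1 tail, was at -0.71 in TE5 shTP63 and -0.12 in KYSE140 shTP63, and the tetraspanin CD82 at 0.27 and -0.54. Among 11 lateral membrane partners, the urokinase receptor PLAUR was higher upon TP63 silencing (0.98 ± 0.17, edgeR adjusted p = 0.0938). Caveolin CAV1 (-0.98 ± 0.22, edgeR adjusted p = 0.0848) and syndecan SDC1 (-0.59 ± 0.13, edgeR adjusted p = 0.0865) were lower upon TP63 than SOX2 silencing. So 1 and 2 of 11 were called in these contrasts, where 0.939% and 4.22% of genes were. All 3 calls were lost under library totals. None of the 11 was called upon SOX2 silencing, with 3 at an unadjusted p under 0.05 and 0 by DESeq2. The most abundant partners, CD9 and BSG, stayed between -0.44 and 0.23 in all 5 comparisons with scramble. SPP1, EDIL3, RAPGEF1, CRK, CRKL, CSK, SRC, FERMT1, LPP, PLAUR, CAV1 and SDC1 were singled out after their values were seen.

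Over the 7 libraries, centred within each line, the genes whose log2 counts followed ITGB6 most closely were TNKS2 (Pearson r = 0.995), CNOT4 (0.994) and FAM13A (0.986) among 12280 genes with at least 100 normalized counts in every library. For ITGAV they were MAN2A1 (0.991), PTPRK (0.986) and EIF5A2 (0.985), and for ITGB3 LPAR6 (0.979), PUS3 (0.973) and RCOR3 (0.972). With only 7 libraries, which differ in depth and in lane, these values are given as a description.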

How the data were processed

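RNA-Seq of 7 libraries was used, 4 of TE5 and 3 of KYSE140. Paired reads were pseudoaligned by the authors with Kallisto against Ensembl transcripts of hg19, and they deposited, per transcript, an estimated count, a TPM value, a length and an effective length. The submitters' processing notes also name DESeq2. Kallisto shares reads between like sequences, so near copies are uncertain. Here, 182863 of 196354 transcripts (93.58% of estimated counts) were summed to 56234 genes with GENCODE 44 mapped to hg19. Counts were scaled by TMM (edgeR 4.0.16, R 4.3.3). Pairs used log2 of normalized counts plus 1, for genes with at least 10 counts in 1 library, without a test. The quasi-likelihood test of edgeR used estimated counts rounded to whole numbers, filterByExpr, cell line as block, 6 libraries and 2 residual degrees of freedom, with Benjamini-Hochberg adjustment over 23438 genes and a threshold of 0.1. It treats the lines as replicates. Deviations of libraries of one line correlated at 0.88 to 0.90, so line pairs the samples. DESeq2 1.42.0 and other scalings, filters and pseudocounts were tried. The edgeR script was tested on simulated data with less spread, no difference between lines and larger changes than the subunits showed upon silencing. That test therefore does not measure how well such changes would be found here. Motifs and words were found with Python 3.11.15. Named genes were all subunits, the silenced genes, from each list the 2 with the highest scramble TPM and those past 1 or -1 the same way in both lines upon TP63 or SOX2 silencing, and the 3 genes most correlated with each of the 3 subunits of largest mean absolute change. Members and lists were chosen with earlier results of these data known. CCAT1, KYSE140 with CCAT1 shRNA, and KYSE70 were not analysed here, nor was any ChIP-seq file.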

Additional observations from a re-analysis of the deposited data

Results flagged for a closer look

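Several subunits had opposite signs in the 2 lines upon the same silencing, as log2 fold change over scramble. Upon TP63 silencing, ITGA2 was at 0.56 in TE5 and -0.03 in KYSE140, ITGA3 at 0.09 and -0.35, and ITGB5 at 0.41 and -0.42. Upon SOX2 silencing, ITGA3 was at -0.15 in TE5 and 0.24 in KYSE140, and ITGB5 at 0.29 and -0.08. With 1 library per line and condition, the difference between the lines was not tested in any of these 5 cases, and some of the values lie close to 0.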

How the results depend on the processing

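No subunit that was called reversed under any alternative. Of the subunit values in the fits, 409 kept direction and call, 18 became called, 10 lost the call and 28 near 0 reversed. With the replicate block (cell line) removed, ITGA3 became 0.012, -0.052 and 0.065 for TP63, SOX2 and TP63 against SOX2, and ITGB5 -0.084 for TP63. For TP63, ITGB5 also became -0.022 with the length offset, -0.035 with DESeq2 and -0.023 with its size factors. Under library totals, ITGB1, ITGB5 and ITGB6 became 0.050, 0.054 and 0.085 for TP63 against SOX2, and ITGA2 -0.14 between lines. Leaving out 1 library gave ranges that crossed 0: for TP63, ITGA3 -0.47 to 0.17, ITGA5 -0.0003 to 0.32 and ITGB5 -0.35 to 0.31; for SOX2, ITGA3 -0.26 to 0.31 and ITGB5 -0.24 to 0.40; for TP63 against SOX2, ITGA3 -0.48 to 0.13, ITGB1 -0.17 to 0.0001, ITGB5 -0.43 to 0.21 and ITGB6 -0.28 to 0.21; and between lines, ITGA2 -0.089 to 0.24.

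Counts of all genes called depended strongly on the setting. For TP63 (220) they were 42 with the length offset, 1737 with DESeq2, 41 under library totals, 1211 without the filter, 0 without the replicate block and 0 with transcripts of no gene kept. For SOX2 (34) they were 12 with the offset, 624, 390, 0 and 1 with DESeq2, no filter, no block and those transcripts, and for TP63 against SOX2 (988) they were 2491, 2050, 0 and 1. Without the condition term ("no replicate block") the lines differed in 13750 genes, beside 15484. Leaving out 1 library gave 0 to 2129 for TP63, 0 to 918 for SOX2 and 127 to 2402 for TP63 against SOX2. For TP63, 0 came without either scramble library, and 1429, 2129, 945 and 532 without KYSE140 shSOX2, KYSE140 shTP63, TE5 shSOX2 and TE5 shTP63. For SOX2, the same omissions gave 0, and 160, 528, 285 and 918. For TP63 against SOX2, 127 and 148 came without KYSE140 and TE5 scramble, and 2402 and 1487 without KYSE140 and TE5 shTP63.

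Genes past 1 or -1 numbered 4992, 2558, 4318, 2902 and 2750 in TE5 shTP63, shSOX2 and shCCAT1 and KYSE140 shTP63 and shSOX2 against scramble. In that order they were 10861, 9867, 10578, 8340 and 9383 with at least 1 count, 2214, 707, 1214, 806 and 887 with at least 50, 2744, 1172, 2191, 1423 and 1646 with 10 added, and 7605, 4730, 7105, 5094 and 4964 with transcripts of no gene kept. With at least 1000 normalized counts, a filter chosen after seeing the data, they were 639, 151, 73, 159 and 230. Library totals put 1 subunit past 1 in TE5 shTP63 instead of 0. With 1 library per line and condition, no interaction of line and silencing could be fitted, and depth limits ITGB3 alone among the subunits. The cause of these changes was not tested.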
